A study of Homo sapiens with 11 samples.

Results

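The joint knockdown of RUNX1 and RUNX2 was set against the luciferase knockdown in MV4-11, a human acute myeloid leukaemia cell line that carries a KMT2A fusion. The comparison was chosen by sample title and rests on 2 of the 11 arrays of the series, 1 with the shRNAs against RUNX1 and RUNX2 together (shRUNX1+shRUNX2) and 1 with the shRNA against luciferase (shLuc), a gene that human cells do not carry. Per the labels, all knockdown cells received their shRNAs by transduction and then 24 hours of doxycycline at 3 µM, so the control had an shRNA and the drug too. The arrays with shRUNX1 alone and shRUNX2 alone show which differences were seen only with both shRNAs. The triple knockdown (shRUNX1+shRUNX2+shRUNX3) and the shRUNX3 array repeat the addition of both shRNAs in cells that also carried the RUNX3 shRNA, and shRUNX1+shRUNX3 and shRUNX2+shRUNX3 complete the 8 knockdown arrays. The other 3 arrays of the series (DMSO, Chb-M' and Chb-50) entered the level filter, the choice of cluster for genes with several, the array medians and 1 alternative fit. No difference given below is taken from them. Each condition had 1 array and all used the same line, so no single difference below has a replicate check.

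Levels are log2 values of transcript clusters, each a set of probes for 1 locus, and a log2 difference of 1 is 2-fold. Of 22109 genes with a cluster of their own, 12147 reached a level of 3.80 on at least 1 array and were compared. Medians of the arrays over these genes lay between 5.86 and 5.91. Of 11 myeloid markers listed for the line, 8 were among the genes compared, against 2 of 5 erythroid, 2 of 5 T cell, 1 of 4 B cell, 2 of 4 megakaryocyte, 2 of 4 epithelial and 0 of 3 fibroblast markers.

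RUNX1, RUNX2 and RUNX3 are Runt-domain transcription factors that bind the same short DNA motif together with CBFB, a partner that stabilises their hold on DNA. RUNX1 is needed for blood stem cells and is often mutated or fused in acute myeloid leukaemia, RUNX2 is best known as the master factor of bone, and RUNX3 acts in lymphocytes and in nerve and gut tissue. Because the factors read the same motif, 1 of them can act at sites of another, which is the question that a joint knockdown addresses.

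The core of the Runt motif, TGTGGT or its complement ACCACA, was searched on both strands of the 250 bases before each gene's start in RefSeq (GRCh38.p14), with the first listed start of a gene used. It was present in 10.9% of 27305 promoters and in 7.92% of the 9215 promoters of genes compared here. The promoters of RUNX2 and RUNX3 are printed because 1 was targeted in the joint knockdown and the other showed its highest level there. IGF1 is printed because it was the only holder of the motif among the 16 genes with a 2-fold difference whose promoter was listed. Of the 6 such genes seen only with the pair, 0 held it. IGF1 read 5.87 with shRUNX1+shRUNX2, 5.09 with shRUNX1, 5.93 with shRUNX2 and 4.85 with shLuc. Its difference was thus already present with shRUNX2 alone, and it was 0.08 in the triple knockdown minus shRUNX3. The sequences run 5′ to 3′ on the strand of the gene, with each motif in capitals.
RUNX2: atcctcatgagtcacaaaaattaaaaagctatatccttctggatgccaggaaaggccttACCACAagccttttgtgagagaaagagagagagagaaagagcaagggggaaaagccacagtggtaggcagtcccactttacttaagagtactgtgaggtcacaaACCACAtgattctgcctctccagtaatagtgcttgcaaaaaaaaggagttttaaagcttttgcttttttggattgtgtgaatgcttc
RUNX3: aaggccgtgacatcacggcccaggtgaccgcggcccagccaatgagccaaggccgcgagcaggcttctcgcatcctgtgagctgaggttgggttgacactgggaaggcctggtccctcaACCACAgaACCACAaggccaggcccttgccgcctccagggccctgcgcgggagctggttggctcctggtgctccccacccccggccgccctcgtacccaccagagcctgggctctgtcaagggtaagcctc
IGF1: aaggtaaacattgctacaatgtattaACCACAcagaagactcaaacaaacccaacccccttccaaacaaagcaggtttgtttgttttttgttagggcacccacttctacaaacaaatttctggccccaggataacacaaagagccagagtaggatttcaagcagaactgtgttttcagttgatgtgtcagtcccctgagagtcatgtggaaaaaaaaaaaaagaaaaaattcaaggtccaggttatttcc
The RUNX2 window lies at chr6:45328080-45328329 on the plus strand, with the motif starting at -191 and at -87 from the gene's start. The RUNX3 window lies at chr1:24965011-24965260 on the minus strand, with the motif starting at -131 and at -123. In the IGF1 window, chr12:102481748-102481997 on the minus strand, the motif starts at -224. A match describes these letters in these windows and says nothing of binding.

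The targeted genes were read first. RUNX1 has no cluster of its own, and the cluster it shares with LOC100506403 read 4.26 with shRUNX1+shRUNX2, 4.12 with shRUNX1, 4.45 with shRUNX2 and 4.30 with shLuc. The joint array thus lay 0.04 below shLuc on this cluster, and the lowest levels came from the other arrays with the RUNX1 shRNA, at 3.96 in the triple knockdown and 4.03 with shRUNX1+shRUNX3. A loss of RUNX1 RNA in the joint knockdown could not be seen on this cluster, and RUNX1 protein was not analysed here. RUNX2 read 5.70 with shRUNX1+shRUNX2, 6.30 with shRUNX1, 5.72 with shRUNX2 and 6.14 with shLuc, a log2 difference of -0.44 between the joint array and shLuc. The 4 arrays with the RUNX2 shRNA lay between 5.56 and 5.82, all below the 4 arrays without it, which started at 6.00.

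RUNX3, which neither shRNA targets, read 8.37 with shRUNX1+shRUNX2, 7.70 with shRUNX1, 8.24 with shRUNX2 and 8.15 with shLuc. The joint array held the highest RUNX3 level of the 8 knockdown arrays. The shRUNX1 array held 1 of the lowest, close to 7.76 with shRUNX3, although it is not labelled as carrying the RUNX3 shRNA. Differences from the shRUNX1 array below therefore come with a RUNX3 level that differed by 0.67, and the part of RUNX3 in them was not tested. CBFB, the shared partner, read 9.30 with shRUNX1+shRUNX2 and 9.31 with shLuc.

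**Figure D1:**
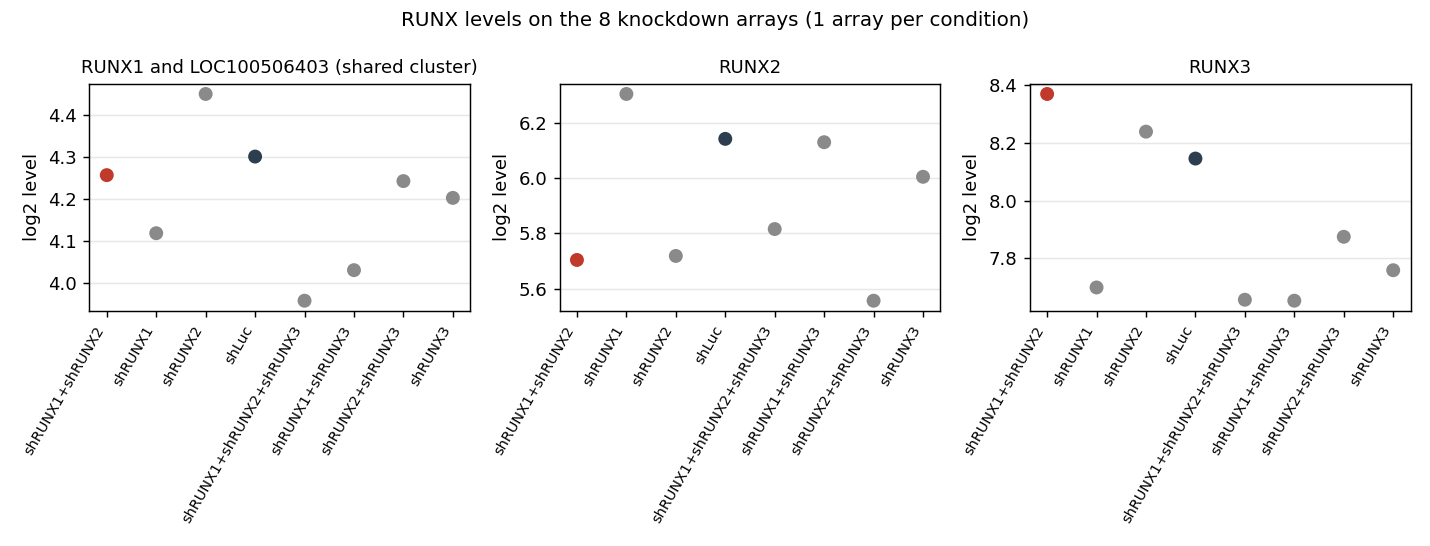
Log2 level of the RUNX1 cluster (shared with LOC100506403), RUNX2 and RUNX3 on the 8 knockdown arrays, 1 point per array, with the joint knockdown in red and shLuc in dark blue; each vertical axis has its own range. RUNX2 was at 5.70 on the joint array and 6.14 with shLuc, and RUNX3 at 8.37 and 8.15.

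In the joint knockdown, several surface and secreted genes of monocytes lay higher and genes of serine and folate metabolism and of cell division lay lower than with shLuc. Of the 12147 genes, 30 (0.247%) were at least 2-fold higher and 14 (0.115%) at least 2-fold lower, and 24 of the 30 and 8 of the 14 are protein-coding. At 1.5-fold the counts were 280 higher (2.31%) and 194 lower (1.6%). The single arrays differed 2-fold from shLuc in 0.198% of genes with shRUNX1 and in 0.181% with shRUNX2, and the joint array in 0.362%. Just inside the 2-fold limit were LGALS3BP at 1.00 and DEPDC1 at -1.01, and just outside it were ICAM1 and CCL5, which round to 1.00. All of these differences use the same shLuc array. With the shRUNX3 array in its place, a choice made after seeing the data, 17 of the 44 genes were still at least 2-fold and 31 at least 1.5-fold the same way. Among the 30 higher genes shLuc held the lowest of the 8 levels in 22 (13.3% of all genes), and among the 14 lower genes it held the highest in 7 (13.9% of all genes), shares that the choice of genes by this array fixes in part.

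Higher genes included several of the phagocyte surface. SMIM14, which encodes a small membrane protein, read 5.95 with shRUNX1+shRUNX2, 5.26 with shRUNX1, 4.98 with shRUNX2 and 4.30 with shLuc. Its log2 difference of 1.65 was the highest of any gene the naming rule allows, and both single arrays lay between the joint array and shLuc. ITGAX, the CD11c integrin chain of monocytes and dendritic cells, read 4.62 with shRUNX1+shRUNX2, 3.91 with shRUNX1, 3.90 with shRUNX2 and 3.23 with shLuc. The same stepwise order held for HLA-DRA, a chain of the class II molecule that presents antigen, at 7.59 with shRUNX1+shRUNX2, 7.29 with shRUNX1, 7.30 with shRUNX2 and 6.45 with shLuc. For HLA-DRA most of the difference of 1.14 was already present with either shRNA alone, whereas for ITGAX both single arrays lay about midway.

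Other higher genes did not share 1 order of the single arrays. CD70, the ligand of the lymphocyte receptor CD27, read 8.04 with shRUNX1+shRUNX2, 6.67 with shRUNX1, 7.87 with shRUNX2 and 6.80 with shLuc. Here the 2 arrays with the RUNX2 shRNA stood apart from the 2 without it. GAPT, a membrane adaptor that binds GRB2, read 6.22 with shRUNX1+shRUNX2, 4.29 with shRUNX1, 5.45 with shRUNX2 and 4.75 with shLuc, so the shRUNX1 array lay below shLuc and the joint array above every other. CES1, a carboxylesterase of liver and monocytes, read 9.21 with shRUNX1+shRUNX2, 8.18 with shRUNX1, 8.54 with shRUNX2 and 7.89 with shLuc. With shRUNX1+shRUNX3, which lacks the RUNX2 shRNA, CES1 read 8.98, and with shRUNX2+shRUNX3 it read 8.23. Further protein-coding genes among the 15 highest were SEMA6B at 1.35, KCNMB1 at 1.31 and CRISPLD2 at 1.28, which encode a semaphorin, a potassium channel subunit and a secreted protein that binds lipopolysaccharide. FBP1, an enzyme of gluconeogenesis, read 6.43 with shRUNX1+shRUNX2, 6.42 with shRUNX1, 6.14 with shRUNX2 and 5.23 with shLuc, so the shRUNX1 array was already as high as the joint one. USP17L5 lay at 1.44, but it belongs to a family of near-identical copies and its probes may read others.

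Of the 44 genes, 13 were at least 1.5-fold from shLuc the same way with both single shRNAs, 15 with shRUNX2 only, 2 with shRUNX1 only, and 11 met the rule for a difference seen only with the pair. That rule asked for a joint level at least 2-fold from shLuc and at least 1.5-fold beyond each single array, with each single array under 1.5-fold from shLuc. Of all genes, 2.34% were at least 1.5-fold from shLuc in either direction with shRUNX1 and 1.44% with shRUNX2. The 11 genes are 0.0906% of those compared (0.0576% higher and 0.0329% lower), and 3 of the 44 met none of these descriptions.

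The 7 higher genes seen only with the pair were CYBB, PTAFR, THBD, CCDC88B, HIPK2, LGALS3BP and the antisense RNA FRY-AS1, the last named after its values were seen. CYBB, the catalytic subunit of the phagocyte oxidase, read 4.44 with shRUNX1+shRUNX2, 3.08 with shRUNX1, 3.66 with shRUNX2 and 3.15 with shLuc. The joint array was the highest of the 8 knockdown arrays, of which the other 7 lay between 3.03 and 3.66. CYBB passed the level filter through the joint array alone, 1 of the 44 genes to do so, and 2 of the lower genes, RACGAP1 and MIR3975 (named after its values were seen), passed through shLuc alone. Such genes had to differ to be compared. HIPK2, a nuclear kinase that phosphorylates p53, read 7.08 with shRUNX1+shRUNX2, 5.89 with shRUNX1, 6.14 with shRUNX2 and 5.98 with shLuc. Each single array lay within 0.16 of shLuc for HIPK2, and the joint array lay 1.09 above shLuc. LGALS3BP, a secreted glycoprotein that binds galectins, read 5.58 with shRUNX1+shRUNX2, 4.63 with shRUNX1, 4.73 with shRUNX2 and 4.58 with shLuc.

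For THBD and PTAFR both single arrays already lay part of the way. THBD, the thrombin receptor thrombomodulin, read 8.05 with shRUNX1+shRUNX2, 7.20 with shRUNX1, 7.17 with shRUNX2 and 6.65 with shLuc. PTAFR, the receptor for platelet-activating factor on leukocytes, read 5.11 with shRUNX1+shRUNX2, 4.26 with shRUNX1, 4.24 with shRUNX2 and 3.81 with shLuc. Single differences of 0.43 to 0.55 for these 2 genes sit just under the 1.5-fold limit of 0.58 on the log2 scale. With a limit of 1.2-fold on the single arrays, 3 higher genes and 1 lower gene were left of the 11.

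The 4 lower genes seen only with the pair were PHGDH, ATP10A, PRAMEF22 and the small nuclear RNA SNAR-E, the last named after its values were seen. PHGDH, the enzyme that commits glycolytic carbon to serine, read 5.90 with shRUNX1+shRUNX2, 6.80 with shRUNX1, 6.62 with shRUNX2 and 7.08 with shLuc. ATP10A, a phospholipid flippase, read 5.63 with shRUNX1+shRUNX2, 6.69 with shRUNX1, 6.54 with shRUNX2 and 6.70 with shLuc. The joint array held the lowest ATP10A level of the 8. PRAMEF22 belongs to a family of close copies whose reads on the probes cannot be told apart.

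"Only with the pair" is meant against the 2 single arrays. Of the 11 genes, 5 were also at least 1.5-fold from shLuc the same way with shRUNX1+shRUNX3 and 2 with shRUNX2+shRUNX3. Among all 44 genes with a 2-fold joint difference, 31 were so with shRUNX1+shRUNX3, which lacks the RUNX2 shRNA. With shRUNX2+shRUNX3, which lacks the RUNX1 shRNA, 11 of the 44 were. The shares of all genes at least 1.5-fold in either direction were 8.31% with shRUNX1+shRUNX3 and 1.49% with shRUNX2+shRUNX3. These differences share the shLuc array by which the 44 genes, and so those seen only with the pair, were chosen. PHGDH read 5.39 with shRUNX1+shRUNX3, lower than with shRUNX1+shRUNX2, and lay within 0.1 of shLuc with shRUNX2+shRUNX3. CCDC88B read 5.44 with shRUNX1+shRUNX2 and 5.39 with shRUNX1+shRUNX3, against 4.25 with shLuc. For CYBB the shRUNX1+shRUNX3 and shRUNX2+shRUNX3 arrays both read 3.28. No gene was at least 2-fold beyond shLuc and both single arrays at once.

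**Figure D2:**
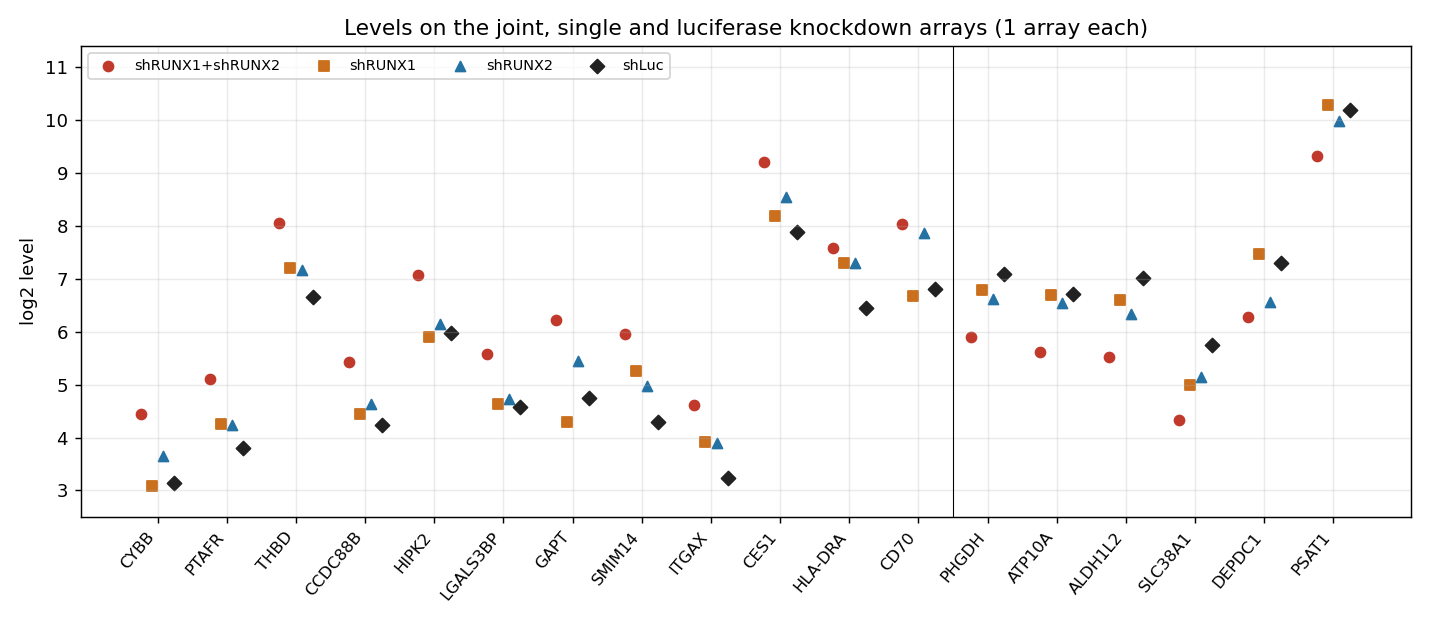
Log2 level of 18 genes with the joint knockdown (red circles), shRUNX1 (orange squares), shRUNX2 (blue triangles) and shLuc (black diamonds), 1 array each; genes left of the line lay higher and genes right of it lower in the joint knockdown. HIPK2 is at 7.08 on the joint array with the other 3 between 5.89 and 6.14, while ITGAX is at 4.62 on the joint array, near 3.9 on both single arrays and at 3.23 with shLuc.

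A cruder count leaves shLuc out. The joint array was at least 1.5-fold above both single arrays in 53 genes (0.436%) and at least 1.5-fold below both in 40 (0.329%), and 20 of these 93 were also 2-fold from shLuc. LILRA2, an activating receptor of monocytes, was among them at 6.54 with shRUNX1+shRUNX2, 5.68 with shRUNX1, 5.69 with shRUNX2 and 5.60 with shLuc. So was ZMAT3, an RNA-binding p53 target, at 6.67 with shRUNX1+shRUNX2, 5.75 with shRUNX1, 6.04 with shRUNX2 and 5.70 with shLuc. Of these genes, 38 above and 18 below are of kinds that the naming rule covers, and the rest are short RNAs, antisense RNAs, pseudogenes and similar loci.

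Against the sum of the single differences, the 30 higher genes had a median excess of 0.08 and the 14 lower genes one of -0.31, beside 0.01 over all genes. HIPK2 exceeded its sum by 1.02, GAPT by 1.23 and CYBB by 0.86. HLA-DRA lay 0.56 and FBP1 0.89 under theirs. The sum counts the shLuc array once more than the joint difference does, so error in that array enters every excess.

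**Figure D3:**
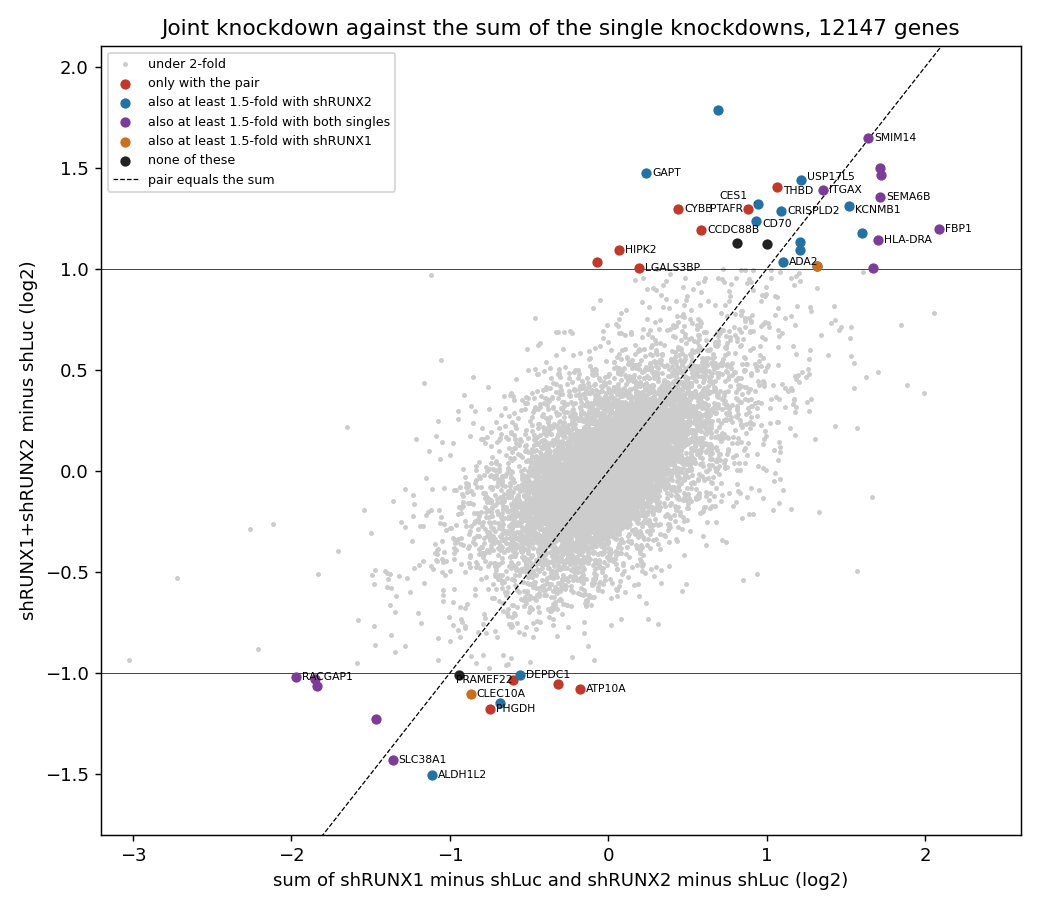
Joint difference from shLuc (vertical axis, log2) against the sum of both single differences from shLuc (horizontal axis, log2), 1 point per gene, with 2-fold genes coloured by the class of their single arrays and the dashed line marking equality; both axes use the same shLuc array. HIPK2, GAPT and CYBB lie above the dashed line by 1.02, 1.23 and 0.86.

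Genes of serine and folate metabolism were among the lowest. ALDH1L2, the mitochondrial formyltetrahydrofolate dehydrogenase, read 5.52 with shRUNX1+shRUNX2, 6.60 with shRUNX1, 6.33 with shRUNX2 and 7.02 with shLuc, and its log2 difference of -1.51 was the lowest of all. SLC38A1, a transporter of glutamine and other neutral amino acids, read 4.32 with shRUNX1+shRUNX2, 5.00 with shRUNX1, 5.14 with shRUNX2 and 5.75 with shLuc. PSAT1, the enzyme after PHGDH in serine synthesis, read 9.32 with shRUNX1+shRUNX2, 10.28 with shRUNX1, 9.98 with shRUNX2 and 10.19 with shLuc. Over the 28 serine, folate and ATF4 target genes compared (of 31 listed), 22 lay lower and 6 higher, 6 of them at least 1.5-fold lower and 2 at least 1.5-fold higher, with a median of -0.19 against 0.00 over all genes, of which 49.1% lay lower and 48.5% higher. The list was not of 1 direction, since the stress-induced DDIT4 lay at 0.77 and the cystine transporter SLC7A11 at 0.63. ATF4 itself was at -0.04. With shRUNX1+shRUNX3, ALDH1L2 read 4.99 and PSAT1 9.15, lower than with shRUNX1+shRUNX2, and SLC38A1 read 4.91, higher than with that pair.

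Genes of DNA replication and mitosis lay lower almost throughout. Of 38 G2 and mitosis genes compared (of 40 listed), 38 lay below shLuc and below both single arrays, where 28% of all genes did, and 17 were at least 1.5-fold lower. Their median was -0.55 with both shRNAs, -0.08 with shRUNX1 and -0.19 with shRUNX2. CDC25C, a phosphatase that activates CDK1 at the entry to mitosis, read 5.61 with shRUNX1+shRUNX2, 6.34 with shRUNX1, 6.17 with shRUNX2 and 6.58 with shLuc. The least affected member was PTTG1 (securin), at 3.37 with shRUNX1+shRUNX2 and 3.57 with shLuc. On the shRUNX1+shRUNX3 array CDC25C read 5.70 and PTTG1 3.06, so lower levels of these genes were not particular to shRUNX1+shRUNX2.

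Of 38 S phase and E2F target genes compared (of 40 listed), 38 lay below shLuc and 37 below both single arrays as well, but only 2 reached 1.5-fold. Their median was -0.45 with both shRNAs, -0.16 with shRUNX1 and -0.07 with shRUNX2. E2F7, a repressor that E2F factors induce, read 6.21 with shRUNX1+shRUNX2, 6.75 with either shRNA alone and 7.02 with shLuc. GINS1, a subunit of the replicative helicase, read 6.73 with shRUNX1+shRUNX2, 7.20 with shRUNX1, 7.28 with shRUNX2 and 7.42 with shLuc. With shRUNX1+shRUNX3, E2F7 read 5.67 and GINS1 6.00, both below their levels with shRUNX1+shRUNX2. The median excess over the sum of the single differences was -0.21 for the S phase list and -0.19 for the mitosis list, from arrays that share shLuc. In the limma fit over the 8 knockdown arrays described at the end, the median product term was 0.01 for the S phase list and -0.02 for the mitosis list. In limma 0 members of either list had an unadjusted p under 0.05 for it. That term averages over arrays without and with the RUNX3 shRNA. It is thus another measure than the excess above, which uses only arrays without that shRNA. Members of a list are not replicates, and arrays of cultures with fewer dividing cells and of cells with less of each RNA cannot be told apart.

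Related lists lay closer to the control. Among 27 DNA repair and checkpoint genes the median was -0.36, 22 lay lower, and BRCA1 was at -0.59. Of 12 replication-dependent histone genes, whose products package new DNA in S phase, 10 lay lower in the joint knockdown with a median of -0.34, although both single arrays had medians just above 0 (0.06 with shRUNX1 and 0.10 with shRUNX2). H2BC9, a histone H2B gene, lay at -0.54 with both shRNAs, 0.38 with shRUNX1 and 0.47 with shRUNX2. Among 14 CDK inhibitors, cyclins and pocket proteins 6 lay higher and 7 lower, with a median of 0.00. CDKN1A (p21) lay at 0.22 and CDK6 at 0.34, beside CDK2 at -0.36 and RBL1 at -0.31. With shRUNX2 alone CDKN1A was already at 0.23.

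On the higher side, 17 of 18 monocyte and macrophage genes (of 30 listed) lay above shLuc, 14 of them above both single arrays as well, where 29.2% of all genes did. Their median was 0.36 with both shRNAs, 0.15 with shRUNX1 and 0.18 with shRUNX2, and 4 were at least 1.5-fold higher. CSF1R, the receptor for macrophage colony-stimulating factor, read 8.07 with shRUNX1+shRUNX2, 7.56 with shRUNX1, 7.67 with shRUNX2 and 7.41 with shLuc. CLEC10A, a lectin of macrophages and dendritic cells that is not on the list, went the other way, at 4.21 with shRUNX1+shRUNX2, 4.43 with shRUNX1, 5.32 with shRUNX2 and 5.31 with shLuc. Its difference of -1.10 made it 1 of the 14 lower genes, and in the triple knockdown minus shRUNX3 it was -0.54. The CD11b gene ITGAM was level, at 0.00, and the costimulatory ligand CD86 lay at -0.09. Of 13 leukocyte integrin and adhesion genes 12 lay higher with a median of 0.37, and ITGAX and ITGAM belong to both lists. ICAM1, the counter-receptor of leukocyte integrins, read 4.83 with shRUNX1+shRUNX2, 3.69 with shRUNX1, 4.29 with shRUNX2 and 3.84 with shLuc.

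Antigen presentation genes lay higher in 15 of 17, with 5 at least 1.5-fold and a median of 0.20. With shRUNX2 alone 15 also lay higher, with a median of 0.20, and with shRUNX1 alone 14, with a median of 0.12. In the joint knockdown PSMB9, an immunoproteasome subunit, lay at 0.78 beside HLA-DRA at 1.14, and HLA-DQA1 at -0.21 was the lowest. Of 23 cytokine and growth factor receptors 19 lay higher with a median of 0.24, and the stem cell factor receptor KIT was the lowest, at -0.38. Of 20 interferon-stimulated genes 16 lay higher and 4 lower with a median of 0.12, 2 at least 1.5-fold higher and 1 at least 1.5-fold lower. IFI6 lay at 0.93, SAMD9L at 0.89 and USP18, which damps interferon signalling, at -0.84. Azurophil and other granule proteins stayed near the control, with a median of 0.09 over 11 genes, MPO at -0.19 and AZU1 at 0.27.

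Among 25 p53 target genes 18 lay higher with both shRNAs, and the median of 0.11 compares with -0.10 with shRUNX1 and 0.07 with shRUNX2. ZMAT3 at 0.97 and EDA2R at 0.81 led the list. CDKN1A, the target best known for arresting the cycle, was at 0.22, and TRIAP1 was the lowest at -0.32. In the triple knockdown minus shRUNX3 the p53 targets went the other way, with 10 higher and 15 lower, a median of -0.10 and CDKN1A at -0.47. In the 24 genes of cholesterol and fatty acid synthesis 21 lay lower with a median of -0.23, led by the desaturases SCD at -0.78 and FADS2 at -0.74. With shRUNX1 alone 19 of the 24 lay lower with a median of -0.12, and with shRUNX2 alone 21 with a median of -0.17. The median of the list was -0.06 in the triple knockdown minus shRUNX3. Housekeeping genes had a median of 0.05 and oxidative phosphorylation genes one of 0.00.

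**Figure D4:**
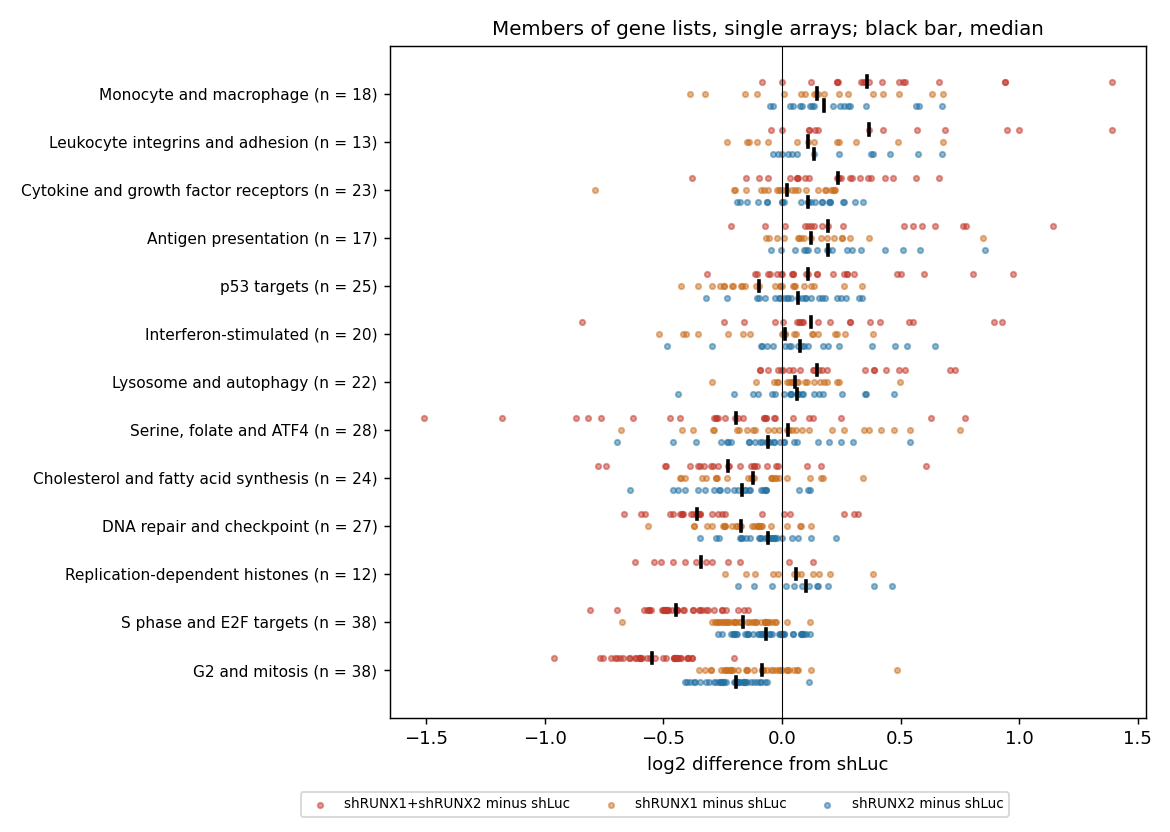
Log2 difference from shLuc of each compared member of 13 gene lists, for shRUNX1+shRUNX2 (red), shRUNX1 (orange) and shRUNX2 (blue), with the median as a black bar; all 3 differences share the shLuc array. The red medians reach -0.55 for G2 and mitosis and 0.36 for the monocyte genes, where the single medians lie between -0.19 and 0.18.

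The triple knockdown minus the shRUNX3 array gives the addition of the same 2 shRNAs on arrays that the joint comparison did not use. Of the 30 higher genes 28 lay higher there too (52.8% of all genes), 13 at least 1.5-fold (3.27%) and 4 at least 2-fold (0.387%), with a median of 0.43. Of the 14 lower genes 12 lay lower (45.2% of all genes), 7 at least 1.5-fold (3.72%) and 2 at least 2-fold (0.659%), with a median of -0.61. Most genes had smaller differences in these arrays, and they had been chosen for their size in the joint comparison only. SMIM14 read 5.81 in the triple knockdown and 4.13 with shRUNX3, a difference of 1.67 beside 1.65 without the RUNX3 shRNA. ALDH1L2 read 4.84 in the triple knockdown and 6.76 with shRUNX3, a difference of -1.92. With shRUNX1+shRUNX3, which lacks the RUNX2 shRNA, SMIM14 read 5.94 and ALDH1L2 4.99, both already near their triple levels.

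PHGDH, GAPT and ITGAX also differed by more than 2-fold in the second comparison, at -1.33, 1.13 and 1.09. With shRUNX1+shRUNX3, PHGDH read 5.39 and ITGAX 4.74, against 5.62 and 4.59 in the triple knockdown. GAPT read 5.15 against 5.65. The part of the RUNX2 shRNA in these differences was not tested. Of PHGDH, GAPT and ITGAX, only PHGDH met the rule for a difference seen only with the pair. Other genes that met that rule had smaller differences in the second comparison, at 0.74 for HIPK2, 0.62 for THBD, 0.43 for both CYBB and PTAFR and 0.19 for LGALS3BP. CD70 read 7.27 in the triple knockdown and 7.27 with shRUNX3, so its difference of 1.24 was not repeated. PRAMEF22 was likewise level, at 0.01. The cell cycle lists lay lower still in this comparison, with medians of -0.95 for S phase and -0.81 for G2 and mitosis, and the monocyte median was 0.41. Over all 12147 genes the 2 comparisons had a Pearson correlation of 0.49 across genes, which are not independent replicates.

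**Figure D5:**
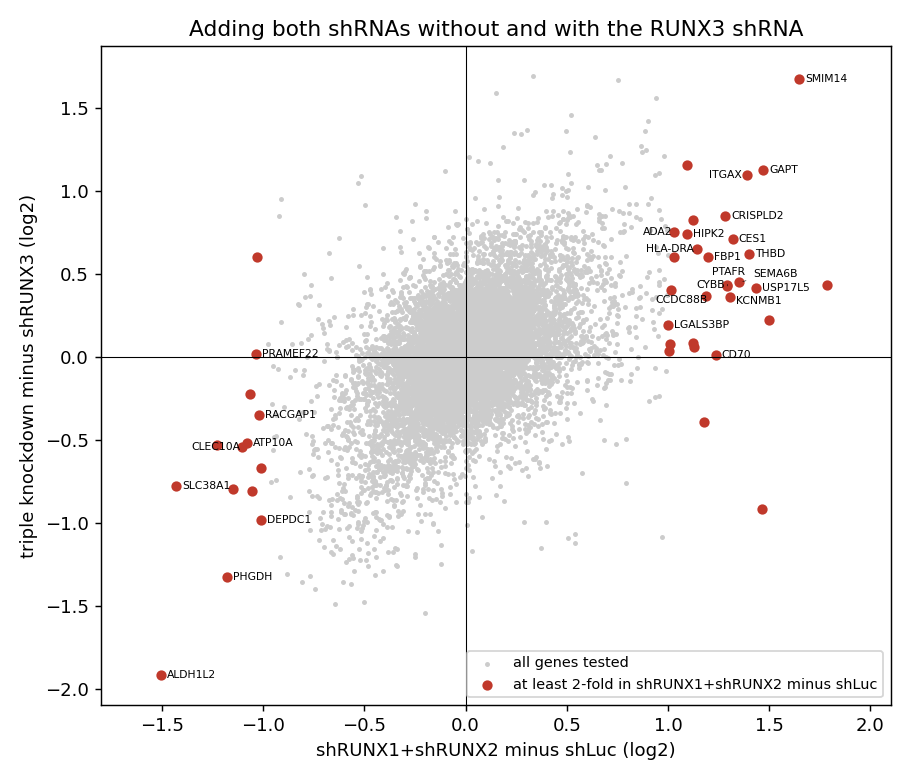
Triple knockdown minus shRUNX3 (vertical axis, log2) against shRUNX1+shRUNX2 minus shLuc (horizontal axis, log2), 1 point per gene, with the 44 genes at least 2-fold in the joint knockdown in red; the axes share no array. SMIM14 lies near 1.65 on both axes and ALDH1L2 at -1.51 and -1.92, while CD70 is at 1.24 on the horizontal axis and 0.01 on the vertical one.

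A limma model over the 8 knockdown arrays, with terms for each shRNA and for the product of the RUNX1 and RUNX2 shRNAs, tested both comparisons together. No gene passed an adjusted p of 0.05 for both shRNAs against neither, the smallest adjusted p in limma being 0.240, while 1844 genes (15.2%) had an unadjusted p under 0.05, 1023 of them higher and 821 lower. Among genes that the naming rule covers, the smallest p belonged to ACSL1, SPOPL, AK3, VAPA and ADA2. ACSL1, which activates fatty acids, read 6.85 with shRUNX1+shRUNX2 and 5.94 with shLuc, and 7.27 in the triple knockdown against 6.50 with shRUNX3. Its fitted log2 difference was 0.84 ± 0.10 (SE). VAPA, a tether of the endoplasmic reticulum, had one of 1.03 ± 0.12, and ADA2, a secreted adenosine deaminase of monocytes, one of 0.89 ± 0.11. SMIM14 had the larger estimate of 1.66 ± 0.22, and it passed the threshold in limma when the shRUNX1 array or the shRUNX1+shRUNX3 array was left out. Those fits give the same result in this model, so they are not separate checks.

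An unadjusted p under 0.05 was found for 30 of 38 genes of G2 and mitosis and for 30 of 38 of S phase, all lower (6.76% of all genes), and in 10 of 18 monocyte genes, all higher (8.42% of all genes). Among genes seen only with the pair the fitted differences were 1.01 ± 0.19 for THBD, 0.92 ± 0.22 for HIPK2 and -1.25 ± 0.38 for PHGDH, with limma adjusted p-values of 0.24 to 0.26. RUNX2 itself had -0.31 ± 0.10, at a limma adjusted p of 0.28.

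The product term asks whether both shRNAs together differ from the sum of each, averaged over arrays without and with the RUNX3 shRNA. It called 0 genes in limma (smallest adjusted p 0.956), and 285 genes (2.35%) had an unadjusted p under 0.05. None of the 11 genes seen only with the pair was among them. ZNF736, a zinc finger gene, had the smallest p, at 4.54 with shRUNX1+shRUNX2, 4.13 with shRUNX1, 3.89 with shRUNX2 and 4.69 with shLuc, so that both single arrays lay lower and the joint array close to shLuc. With 3 residual degrees of freedom these fits take their spread from arrays of different conditions. For HIPK2 the fitted product term was 0.41 ± 0.31 (SE), for ATP10A -0.47 ± 0.32 and for PHGDH -0.13 ± 0.53. These errors leave room for terms of either sign for PHGDH, and a p above the threshold does not show that the pair equals its parts.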

How the data were processed

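RNA of MV4-11 cells was measured on 11 Affymetrix arrays, 1 per condition. The table the authors deposited holds log2 levels of transcript clusters. Per the submitters' processing notes, RMA, Affymetrix Expression Console 1.3.1 and Transcriptome Analysis Console 1.0 were used, in an order and with roles that they do not state. For the probes no genome build is given in the sources used here, and no detection calls were used, so precision is limited by the number of arrays. Of 53617 clusters, 23558 had 1 gene symbol in the platform annotation, 2155 had more than 1 and 27904 were without one. By Entrez identifier 22271 matched RefSeq (GRCh38.p14), by which 3 symbols were updated.

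For the 618 genes with several clusters the one with the highest mean over all 11 arrays was used. A gene was kept where at least 1 array reached 3.80, the median value. Differences are subtractions of log2 levels and carry no test. The model (~ R1 * R2 + R3) was fitted to 8 arrays with limma 3.58.1 in R 4.3.3, with eBayes moderation (3.25 prior and 3 residual degrees of freedom) and Benjamini-Hochberg adjustment over 12147 genes, and was tested on simulated data. The 8 arrays are 8 conditions, so the spread in this fit holds any effect of the RUNX3 shRNA that depends on the other shRNAs. Standard errors and p-values reflect that spread and not one between replicates. Nothing in the labels says that arrays came from separate cultures, so the spread can also be technical.

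Genes named are the RUNX factors and CBFB, the 15 highest and 15 lowest differences, those seen only with the pair, those of smallest p, and the 2 highest and 2 lowest members of each gene list, without small RNAs, antisense RNAs and pseudogenes. Other names are marked where they occur, ATF4 and the genes at the fold limit among them. The members, gene lists and tests were chosen with earlier results of these data known. Listed genes without a cluster of their own were not analysed here. Alternatives changed the level filter, the cluster chosen, the scaling, the fold limits, the control array, the model terms and the arrays included.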

Additional observations from a re-analysis of the deposited data

Results flagged for a closer look

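3 genes had differences of opposite sign when both shRNAs were added without and with the RUNX3 shRNA, each at least 1.2-fold, and with 1 array per condition the difference between the 2 comparisons was not tested. TCEAL3, a gene of the TCEAL family, lay at -0.91 for shRUNX1+shRUNX2 minus shLuc (2.98 against 3.89) and at 0.95 for the triple knockdown minus shRUNX3 (3.84 against 2.89). EGR1, an immediate early transcription factor, lay at -0.76 (6.27 against 7.03) and at 0.43 (6.61 against 6.18). KLF6, a zinc finger factor that stimuli also induce, lay at -0.55 (5.45 against 6.00) and at 0.29 (5.57 against 5.28). For all 3 genes shLuc held the highest of the 8 knockdown levels. The shRUNX3 array, the control of the second comparison, held the lowest for TCEAL3 and EGR1. For KLF6 only shRUNX1+shRUNX3 lay lower than shRUNX3, at 5.20. With shRUNX3 in place of shLuc the joint difference was 0.09 for TCEAL3, 0.09 for EGR1 and 0.17 for KLF6. The part of either control array in the differences was not tested. The genes were searched among those that the naming rule covers.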

How the results depend on the processing

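The counts at 2-fold kept within 1.5 times of 30 higher and 14 lower under mean values over clusters, centred medians, quantile normalization and shRUNX3 in place of shLuc (40 higher and 16 lower). Without a level filter 23 genes were lower and 13 higher ones were seen only with the pair. A stricter filter left 13 higher and 9 lower, and 2 higher ones only with the pair, since fewer genes were compared. At 1.5-fold there were 280 higher, 194 lower, 29 higher and 19 lower only with the pair, and 161 shared with the triple comparison. At 3-fold these counts were 2, 0, 0, 0 and 1. Limiting the single arrays to 1.2-fold gave 3 higher and 1 lower only with the pair, requiring 2-fold beyond all gave 0 and 0, and leaving shLuc out of the rule, added after seeing the data, gave 53 and 40. With 1 single array left out, the genes seen only with the pair numbered 7 to 19 higher and 6 to 7 lower (19 and 7 without shRUNX2, 7 and 6 without shRUNX1).

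The limma count for both shRNAs against neither was 0 to 1 when each array was left out. SMIM14 was called without shRUNX1 and without shRUNX1+shRUNX3. These fits gave the same result, since either leaves a lone array with the RUNX1 shRNA and without the RUNX2 shRNA. The model matches such an array exactly, so they are not separate checks. In all fits of this kind the lone arrays were assumed to vary like the others. No other alternative model called a gene in either contrast. With a product term for the RUNX1 and RUNX3 shRNAs added, 949 genes had an unadjusted limma p under 0.05 for both shRNAs against neither, beside 1844 in the main model. The count was 1307 with a product term for RUNX2 and RUNX3 as well, and 1988 with the limma spread allowed to follow the level. Of 162 named genes, 97 moved with shRUNX3 in place of shLuc, 2 with mean values over clusters, and 15 changed sign with shRUNX3 in place of shLuc, 2 of them (TCEAL3 and EGR1) at least 1.5-fold and none at least 2-fold with shLuc. Centring and quantile normalization each changed the sign of 3, mean values of 1 and no level filter of 0, all under 1.5-fold. No paired analysis was possible because each group has 1 sample, so the groups share only 1 replicate number. Single arrays per condition and unknown signal over background limit all differences, most of all those of low levels.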
